A study of Homo sapiens with 2 samples.

Results

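Plastins, transgelins and calponins are small families of proteins that bind actin filaments, and they were described here with the smooth muscle actin gene ACTA2 and the myosin light chain gene MYL9 in a pair of human kidney cancer lines. The members were LCP1, PLS1, PLS3, TAGLN, TAGLN2, CNN1, CNN2, CNN3, ACTA2 and MYL9, and every probe set that the array annotation paired with exactly 1 of these symbols was taken, which gave 17 of 54613 probe sets and 10 of 19775 genes. The genes were chosen by family with earlier results of the same arrays in view, above all the log2 differences of LCP1 and TAGLN, so the differences of the members are given as a description and without a test. 786-O is an established clear-cell renal carcinoma line with a mutated VHL gene, and 786-VHL was made from it and holds a working VHL gene. Both lines therefore share the 786-O background and differ, as labelled, in the working VHL gene. Whether 786-VHL was 1 clone or a pool, and how its VHL gene was driven, is not given in the sources used here. Biotin-labelled target from total RNA of each line went onto 1 Affymetrix array, and the deposited intensities are in arbitrary units on a linear scale.

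A single array stood for each line, so no difference could be set against a spread between replicates, and 2 arrays in all set the precision. Differences are log2(intensity + 16) in 786-VHL minus that in 786-O, so a negative value is lower in 786-VHL, and folds are on the same scale, which understates differences of dim probe sets. A probe set was called measured where the higher of its values exceeded the median of all values on both arrays, a floor of 22.3. The median difference over 28596 measured probe sets was 0.04 and the SD 0.46. The median intensity was 21.97 on the 786-O array and 22.58 on the 786-VHL array. VHL itself read 28.9 in 786-O and 15.96 in 786-VHL on 1 probe set and 6.32 and 7.96 on the other, levels near or below the floor that do not check the labels. Of the kidney markers the brightest were PAX8, a transcription factor of kidney lineage, at 1521 and 1068, and the epithelial keratins KRT18 at 5315 and 4960 and KRT8 at 1771 and 2116, whereas PAX2 read 102 and 106, and LHX1, at 29.2 and 35.3, and CDH16, at 25.9 and 28.8, lay just above the floor.

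Plastins, also called fimbrins, hold actin filaments side by side in tight bundles. LCP1 (L-plastin) is the form typical of white blood cells and is often switched on in carcinoma cells, PLS3 (T-plastin) is the form of most solid tissues, and PLS1 (I-plastin) is found in the brush border of gut and kidney epithelium. Transgelins and calponins each carry a calponin homology domain and bind along the filament. TAGLN (SM22 alpha), CNN1 and ACTA2 are classical products of differentiated smooth muscle, and MYL9 encodes the regulatory light chain whose phosphorylation lets non-muscle and smooth muscle myosin contract, whereas TAGLN2, CNN2 and CNN3 are made in many cell types. Many of the smooth muscle genes are driven by serum response factor (SRF) through a short element, the CArG box, and the ubiquitin ligase that VHL serves is best known for destroying the alpha subunits of hypoxia-inducible factor (HIF).

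Promoter sequence bears on these genes because SRF and HIF each bind a short motif. RefSeq promoter windows on GRCh38.p14 matched 8 of the 10 members with 15 windows, and TAGLN and MYL9 had no entry. The 250 bases before each annotated start were searched for the CArG box and, on both strands, for ACGTG and GCGTG, the core letters of a HIF-binding site. The CArG box, searched in its strict form with only A or T in its centre, reads the same on either strand, and the motifs do not overlap each other in the windows where they were found. LCP1 and CNN2 are shown because LCP1 is the plastin with the large difference and CNN2 was the only matched member with a strict CArG box. Capitals mark that box and lower case all other bases.
LCP1, chr13:46182178-46182427, minus strand: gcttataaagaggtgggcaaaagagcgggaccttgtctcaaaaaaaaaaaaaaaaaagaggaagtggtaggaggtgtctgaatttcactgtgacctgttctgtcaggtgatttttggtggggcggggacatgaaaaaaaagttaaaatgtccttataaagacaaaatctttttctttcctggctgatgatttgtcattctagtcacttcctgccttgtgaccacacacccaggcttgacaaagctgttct
CNN2, chr19:1026358-1026607, plus strand: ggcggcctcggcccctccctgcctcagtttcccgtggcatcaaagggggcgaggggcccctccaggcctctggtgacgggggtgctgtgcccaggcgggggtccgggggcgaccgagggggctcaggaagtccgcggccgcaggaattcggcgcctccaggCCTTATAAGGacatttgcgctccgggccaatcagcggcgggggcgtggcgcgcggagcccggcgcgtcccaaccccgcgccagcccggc

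The strict CArG box of CNN2 lay 89 to 80 bases before the start. Near matches were not counted: an ACTA2 window held ccctatatgg and ccttgtttgg, with a C or a G in the centre. Of 35116 RefSeq promoter windows of the same length, 1.16% held a strict CArG box and 43.2% held ACGTG or GCGTG. The LCP1 window held neither HIF core, and GCGTG occurred once in a window of PLS1, TAGLN2, CNN2, CNN3 and ACTA2. These matches describe letters in the windows and were not tested as binding sites.

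Of the 17 member probe sets 15 were measured, and 4 of these were at least 2-fold lower in 786-VHL, against 2.57% of all measured probe sets; 0 were at least 2-fold higher, against 1.33%. Since the genes were chosen with these differences known, nothing is read from the contrast with that background. The 4 probe sets belonged to LCP1, TAGLN and MYL9, and 3 of them, of LCP1 and TAGLN, were at least 4-fold lower, against 0.378% of all measured probe sets. The other 11 measured probe sets lay between -0.58 and 0.20.

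**Figure D1:**
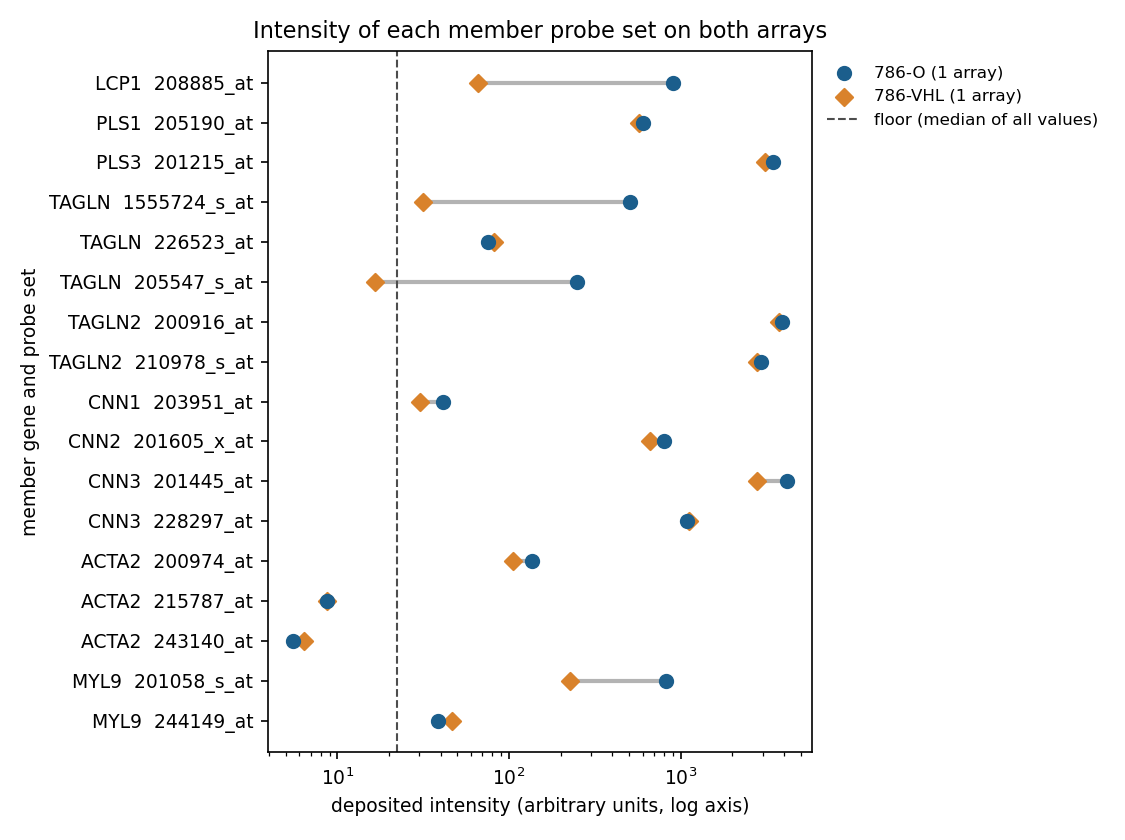
Deposited intensity of each of the 17 member probe sets (log axis, arbitrary units) on the 786-O array (circles) and the 786-VHL array (diamonds), with the floor of 22.3 as a dashed line. Long gaps separate the arrays for LCP1, for 2 probe sets of TAGLN and for 1 of MYL9, and the other symbols lie close together.

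Among the plastins, LCP1 alone differed by more than 2-fold between these arrays. LCP1 read 908 in 786-O and 66.1 in 786-VHL on its only probe set. It was high in 786-O and low, though still above the floor, in 786-VHL. The log2 difference was -3.49, which is 11.3-fold lower in 786-VHL, and it was the 4th lowest of 13291 measured genes when each gene is represented by its brightest single-gene probe set. In RNA from a whole culture, fewer cells with LCP1 and less LCP1 RNA per cell cannot be told apart.

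PLS3, the plastin of most solid tissues, read 3436 in 786-O and 3116 in 786-VHL, a difference of -0.14. PLS1, the brush-border plastin, read 601 and 573, a difference of -0.07. The arrays were near each other for both genes, well within the SD of 0.33 found between probe sets of the same gene over 6436 genes, which is the only measure of error in these data and does not cover arrays or cultures. Each plastin was represented by a single probe set, so the LCP1 difference had no second probe set beside it.

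LCP1 is also a marker of white blood cells, so other leukocyte genes are given beside it. Of 12 listed markers 6 were measured, and the summed intensity of all 12 was 476 in 786-O and 672 in 786-VHL. The defining marker PTPRC (CD45) read 11.3 and 12.1, below the floor on both arrays, as did LCP2, HCLS1, CD37, CD48 and TYROBP. The 2 brightest by mean log2 value were WAS, an actin regulator of blood cells, at 116 and 134, and LAPTM5, a lysosomal membrane protein of blood cells, at 25.9 and 292. LAPTM5 and CD74, the invariant chain of MHC class II, were at least 2-fold apart in opposite directions, with log2 differences of 2.88 and -1.30. CD74 read 145 and 49.3, and another CD74 probe set differed by 0.12. Another LAPTM5 probe set differed by 1.58. The higher sum in 786-VHL came from LAPTM5, the marker furthest apart, which was left out in a setting chosen after the values were seen. That choice fixed the direction of the remaining sums, so nothing is read from it. The other 11 markers then summed to 450.4 in 786-O and 379.5 in 786-VHL. CD74 alone fell by more than this sum did. Of the 6 measured markers 4 were higher in 786-VHL and 2 lower, with a median difference of 0.13. The part of leukocyte RNA in the LCP1 value was not tested.

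The transgelins divided in the same way as the plastins. TAGLN read 508 in 786-O and 31.6 in 786-VHL on probe set 1555724_s_at. It read 250.4 and 16.6 on probe set 205547_s_at. On both, the 786-O array was high and the 786-VHL array was near or below the floor.

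The difference of TAGLN was -3.46 on 1555724_s_at, 11.01-fold lower in 786-VHL and the 5th lowest of all measured genes. On 205547_s_at it was -3.03, and with 786-VHL set to the floor TAGLN was at least 6.96-fold lower. The remaining TAGLN probe set, 226523_at, for which the annotation gives no accession, read 75.1 and 82.0, a difference of 0.10. The gap of 3.565 between the lowest and highest TAGLN probe set was reached by only 3 of 6436 genes with several measured probe sets, TAGLN among them.

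TAGLN2, the transgelin of many cell types, read 3909 in 786-O and 3760 in 786-VHL on probe set 200916_at. It read 2928 and 2770 on probe set 210978_s_at. The arrays differed by -0.06 and -0.08 on these probe sets, less than the SD of 0.33 between probe sets of the same gene.

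**Figure D2:**
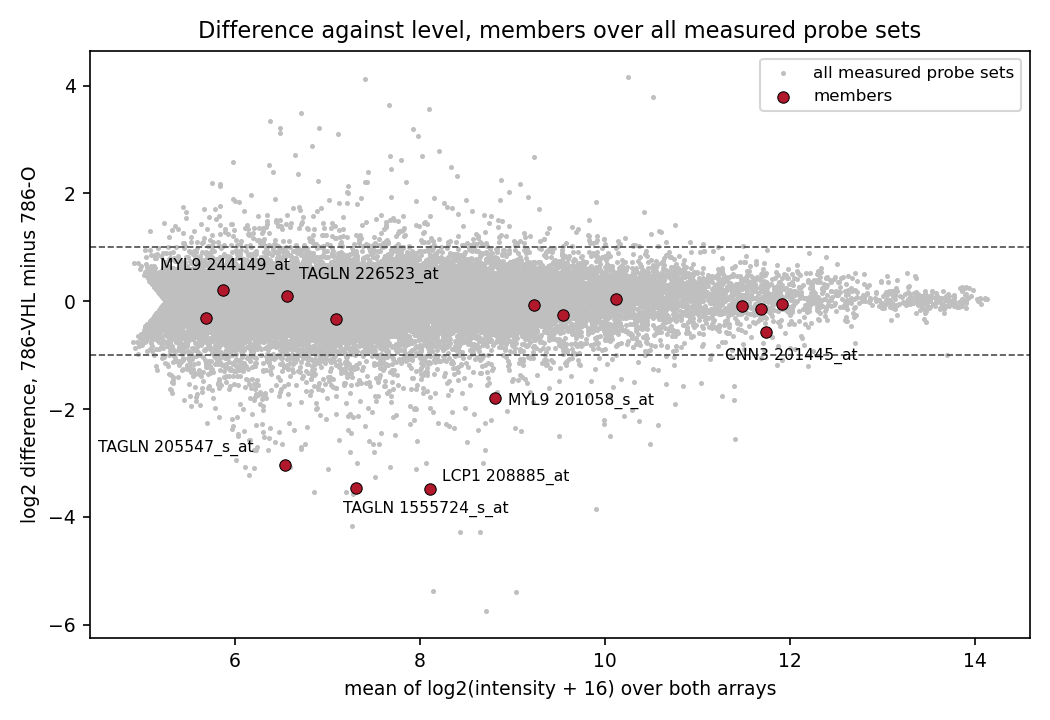
Log2 difference, 786-VHL minus 786-O, against the mean log2(intensity + 16) of both arrays for all 28596 measured probe sets (grey) and the 15 measured member probe sets (red), with dashed lines at 2-fold. LCP1 and 2 TAGLN probe sets lie at -3.03 or below, MYL9 201058_s_at at -1.80, and the other members lie between -0.58 and 0.20.

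No calponin was 2-fold apart. CNN1, the smooth muscle calponin, read 41.3 in 786-O and 30.3 in 786-VHL, a difference of -0.31 close to the floor. CNN2, a calponin of many cell types including epithelium and leukocytes, read 803 and 666, a difference of -0.26. Its only probe set has the suffix _x_at, which Affymetrix gives to probe sets that may bind other transcripts, so its value is uncertain.

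CNN3, the acidic calponin, was the next lowest member after LCP1, TAGLN and MYL9. On probe set 201445_at it read 4178 in 786-O and 2792 in 786-VHL, a difference of -0.58 or 1.49-fold. On probe set 228297_at it read 1082 and 1114, a difference of 0.04. The probe sets of CNN3 did not give the same picture, and the gap of 0.62 between them was larger than the difference itself.

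ACTA2, the smooth muscle actin, read 136 in 786-O and 105 in 786-VHL on its measured probe set, a difference of -0.33. Its other probe sets were below the floor, at 8.73 on both arrays for 215787_at and at 5.48 and 6.43 for 243140_at. The actin typical of smooth muscle thus gave a moderate signal in both lines, less than 2-fold apart, on 200974_at alone. Its presence was not shown by the other probe sets.

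MYL9 read 823 in 786-O and 225 in 786-VHL on probe set 201058_s_at. Both values were well above the floor and the 786-VHL array was the lower. The difference was -1.80, or 3.48-fold, and was the 58th lowest of all measured genes. MYL9 on probe set 244149_at, which was dim, read 38.5 and 46.7, a difference of 0.20.

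The probe sets of TAGLN and MYL9 with a large difference all carry the suffix _s_at, given by Affymetrix to probe sets that bind several transcripts, and those without it differed by 0.10 and 0.20. Without the suffixed probe sets only LCP1 was left at least 2-fold lower. Over all measured probe sets, 2.55% of those with a suffix of _s_at, _x_at or _a_at and 2.59% of those without one were at least 2-fold lower. The part of probe design in the TAGLN and MYL9 values was not tested.

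TAGLN, ACTA2, CNN1 and MYL9 are also high in smooth muscle and pericytes, whose other markers are given beside them. Of 9 listed markers 6 were measured, and the summed intensity of all 9 was 1519 in 786-O and 731 in 786-VHL, most of it from MCAM. MCAM, an adhesion molecule of pericytes, endothelium and some tumours, read 1268 and 472, a difference of -1.40, with another probe set at 0.02. Without MCAM, again chosen after the values were seen as the marker furthest apart, the other 8 summed to 251 in 786-O and 259 in 786-VHL. Of the listed markers 3 were below the floor, so these sums hold background and nothing is read from their order. The part of smooth muscle or pericyte RNA in the TAGLN and MYL9 values was not tested. RGS5, a G-protein regulator of pericytes, read 60.9 and 42.3. The defining smooth muscle genes were dim, with the smooth muscle myosin MYH11 at 50.9 and 63.8, desmin (DES) at 24.4 and 36.5 and the leiomodin gene LMOD1 below the floor. Of 8 fibroblast markers 5 were below the floor, COL3A1 and DCN among them, and the brightest were COL1A1 at 94.8 and 79.9 and THY1 at 41.3 and 50.6. LUM, a small matrix proteoglycan, read 5.64, under the floor, and 37.1, and was at least 1.39-fold higher in 786-VHL. Of 7 endothelial markers 5 were measured and 0 were 2-fold apart, with CLDN5 at 35.2 on both arrays and TEK at 23.6 and 27.2. In the kidney list 9 of 11 markers had a single-gene probe set, and all 9 were measured and less than 2-fold apart.

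The members were then set beside 4 lists of other genes, each gene represented by its brightest probe set. The lists hold genes of the actin cytoskeleton and, in the last, SRF with its coactivators and further targets. Over all 13291 measured genes the median difference was 0.05, with 2.18% at least 2-fold lower and 1.54% at least 2-fold higher in 786-VHL. Over the 10 members the median was -0.32, with 3 at least 2-fold lower and 0 higher. All 10 representing differences were negative, and the smallest in size, that of TAGLN2, was -0.06. Of all measured genes 35.4% lay at or below the TAGLN2 difference. Without suffixed probe sets TAGLN and MYL9 turned positive. Another CNN3 probe set differed by 0.04, and ACTA2 was at 0.00 over the median of probe sets.

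Actins and the factors that turn filaments over went slightly the other way. Of 23 measured genes 18 were higher in 786-VHL and 5 lower, with a median of 0.16 against 0.05 over all measured genes. The share of all measured genes that were higher was not counted. The list median was 0.11 after quantile normalization and 0.08 with the intensity trend removed. CAPG, which caps the fast-growing filament end, was the only one 2-fold apart, at 762 in 786-O and 2422 in 786-VHL, a difference of 1.65. Gelsolin (GSN), which severs filaments, read 138 and 285, a difference of 0.97, with another probe set at 0.25. Twinfilin-2 (TWF2) differed by 0.55 and the capping protein subunit CAPZB by 0.53, and ACTB, the main cytoplasmic actin, by 0.10 at 15377 and 16484.

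Other bundlers and cross-linkers had a median of -0.14 over 17 measured genes, 9 lower and 8 higher. ACTN4, an alpha-actinin that cross-links filaments, read 1259 in 786-O and 547 in 786-VHL, a difference of -1.18 and the only one past 2-fold on its representing probe set. Drebrin (DBN1) differed by -0.74, the capping and bundling protein EPS8 by -0.61, and fascin (FSCN1), which bundles filaments in filopodia, by 0.61 with another probe set at -0.71. MARCKS, which binds filaments at the membrane, differed by -0.39 on its brightest probe set, but its 5 probe sets reached -1.99. These bundlers showed differences in both directions, and the median was -0.05 over the median of probe sets and -0.32 without suffixed probe sets.

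The contractile partners of MYL9 and ACTA2 had a median of -0.05 over 22 measured genes, 12 lower and 10 higher. Caldesmon (CALD1), which restrains myosin on the filament, read 2252 in 786-O and 930 in 786-VHL, a difference of -1.26 and the only one past 2-fold on its representing probe set, but its 6 probe sets ranged from -1.26 to 0.46. Tropomyosin TPM4 differed by -0.93, with probe sets from -1.17 to 0.07. Smoothelin (SMTN) differed by -0.85, with its other probe set at -0.88, and the myosin-activating kinase ROCK1 by -0.69, with probe sets up to 0.37. These 4 genes, with the largest differences in the list on representing probe sets, were lower in 786-VHL, but other probe sets of the list went both ways, with TPM1, a tropomyosin, reaching 1.23 and MYH10, a non-muscle myosin heavy chain, reaching -1.20. A higher floor, the 75th percentile of all values, gave a list median of -0.33.

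SRF, its coactivators and further SRF targets had a median of -0.20 over 18 measured genes, 10 lower and 8 higher. SRF read 289 in 786-O and 332 in 786-VHL, a difference of 0.19, with its other probe set at -0.28. Its coactivators MRTFA and MRTFB differed by 0.41 and -0.14, but the 4 probe sets of MRTFA ranged from -0.20 to 0.41. MYOCD, the smooth muscle coactivator, was below the floor on both arrays. The matricellular target CCN2 read 785 and 346, a difference of -1.15, and the early response gene EGR1 read 72.5 and 204, a difference of 1.32. The focal adhesion proteins TGFB1I1 and PDLIM7 differed by -0.92 and -0.74, but the 7 probe sets of PDLIM7 ranged from -0.76 to 0.11. SRF targets thus went both ways, and 1 was at least 2-fold lower and 1 at least 2-fold higher. The list median was -0.017 without suffixed probe sets and -0.013 over the median of probe sets, so its distance from 0 depended on the probe sets used.

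**Figure D3:**
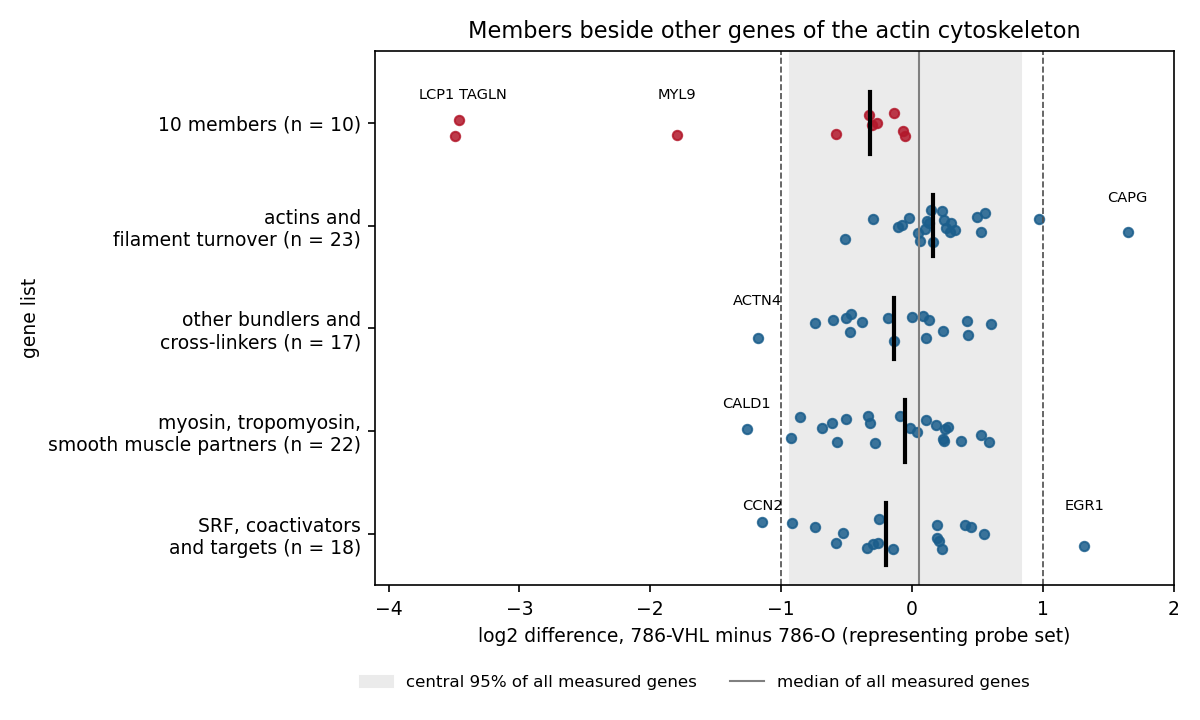
Log2 difference, 786-VHL minus 786-O, of each measured gene in the 10 members (red) and in 4 other lists (blue). The lists hold genes of the actin cytoskeleton and, in the last, SRF with its coactivators and targets. Black bars mark list medians, dashed lines 2-fold and grey the central 95% of all measured genes. LCP1 and TAGLN lie below -3 and MYL9 at -1.80, while CALD1, ACTN4, CCN2, CAPG and EGR1 are the only other genes past 2-fold.

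Neighbouring genes on the chromosome were described for LCP1, TAGLN and MYL9, with gene order taken from the GRCh38.p14 annotation. The nearest 3 measured genes on either side of LCP1 on chromosome 13 were COG3, CBY2 and ZC3H13, then LRCH1, ESD and SUCLA2, and their differences lay between 0.00 and 0.46, with a median of 0.10. Those of MYL9 on chromosome 20 were EPB41L1, AAR2 and DLGAP4, then TGIF2, NDRG3 and DSN1, between -0.25 and 0.52 with a median of 0.24. The large negative differences of LCP1 and MYL9 therefore stood alone among these neighbours.

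TAGLN on chromosome 11 had neighbours that were mostly lower too. PAFAH1B2 read 931 in 786-O and 643 in 786-VHL, a difference of -0.52, and SIDT2 differed by -0.41. PCSK7, a proprotein convertase gene whose annotated span overlaps that of TAGLN, read 249 and 116, a difference of -1.002 or 2.003-fold. LOC100652768, a non-coding gene that also overlaps TAGLN, read 34.3 on both arrays, RNF214 differed by -0.25 and BACE1, the beta-secretase gene, by 0.05. Thus 4 of the 6 neighbours were lower in 786-VHL, with a median of -0.33, and each was less far apart than TAGLN itself; the part of the region in the TAGLN value was not tested.

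**Figure D4:**
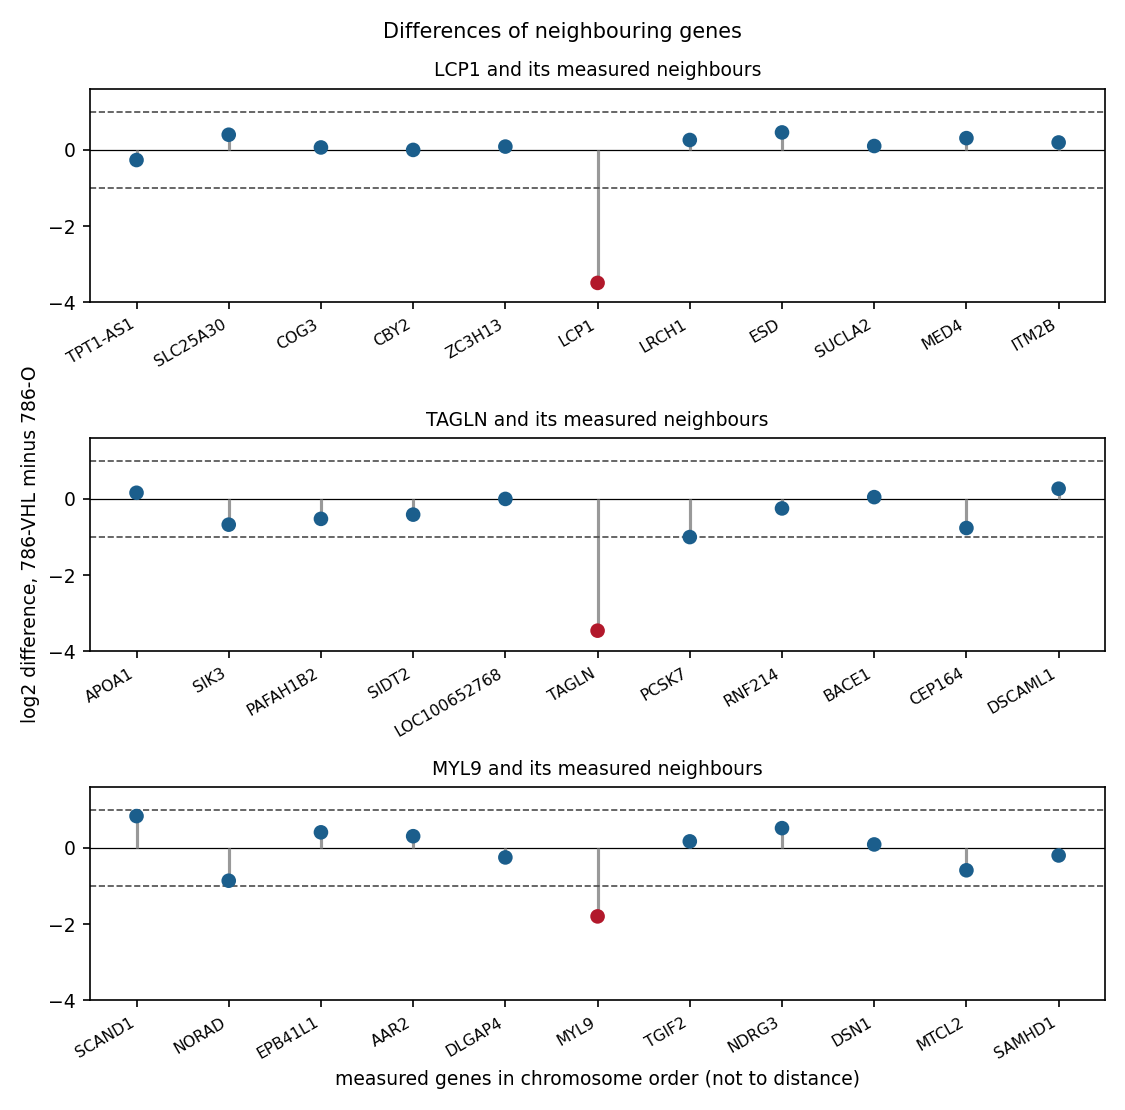
Log2 difference, 786-VHL minus 786-O, of LCP1, TAGLN and MYL9 (red) and of the 5 nearest measured genes on either side (blue), in chromosome order and not to distance, with dashed lines at 2-fold. PCSK7, at -1.002 beside TAGLN, is the only neighbour drawn that reaches 2-fold.

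Other pseudocounts and scalings changed the size and not the direction of the differences of LCP1, the 2 TAGLN probe sets and the MYL9 probe set that were past 2-fold. A pseudocount cannot change a direction. Another floor, or leaving out other probe sets, does not enter a difference at all. Those settings were therefore no check of the direction. Over all 7 settings of these kinds, 1 of them without suffixed probe sets, LCP1 lay between -3.76 and -2.90. TAGLN lay between -3.96 and -2.58 on 1555724_s_at and between -3.84 and -1.96 on 205547_s_at, and MYL9 between -1.86 and -1.62 on 201058_s_at, over the 6 settings that kept suffixed probe sets. All 4 probe sets were at least 2-fold lower in 786-VHL in each of these settings that used them.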

How the data were processed

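The deposited intensities, 1 per probe set and array on a linear scale, were made by the authors; R 2.10 is the only tool in the submitters' processing notes, and how background, normalization and probe summary were handled is not given in the sources used here, so their effect on the differences is unknown. The platform annotation paired 41091 probe sets with 1 gene symbol, 1801 with several and left 11721 unnamed here; only the first were used, with current symbols by Entrez number for 41037. Values were analysed as log2(intensity + 16). Each gene took the values of its brightest probe set, by the mean of both arrays, among those naming that gene alone, and was measured where the higher value exceeded 22.3. With 1 array per line no test was made, and sizes of 2-fold and 4-fold were used. The members, lists and alternatives were chosen with earlier results of these data known. Genes named beside the members were the 4 with the largest difference in each list, markers at least 2-fold apart, the 2 brightest markers of each list by mean log2 value, and 3 measured neighbours on either side; other genes were named after their values were seen. Counting was tested on simulated data with planted changes. Promoter windows came from RefSeq (GRCh38.p14). The software was pandas 2.3.3 and numpy 2.4.6 under Python 3.11.15, with matplotlib 3.10.9 for plots.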

Additional observations from a re-analysis of the deposited data

How the results depend on the processing

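No paired analysis was possible because neither line had a second array, so leaving out replicates could not be done either. Of 94 alternative values for the members 85 stayed within the spread between probe sets, or within 1.5 times for counts, 7 moved further and 2 changed sign; of 104 for the lists 91 stayed. Without _s_at, _x_at and _a_at probe sets TAGLN was at 0.10 and MYL9 at 0.20, 1 member probe set was at least 2-fold lower, and 1 contractile gene and 0 SRF-list genes were at least 2-fold higher, with fewer probe sets used. Over the median of probe sets TAGLN was at -3.03, MYL9 at -0.80 and ACTA2 at 0.00, and 0 contractile genes were lower and 0 SRF-list genes higher. A pseudocount of 1 gave TAGLN -3.96 and 2 turnover genes higher; a pseudocount of 64 gave TAGLN -2.58, LCP1 -2.90 and 0 SRF-list genes higher. With the intensity trend removed 2 contractile genes were lower. At 1.5-fold 2 turnover genes were higher, 3 bundlers lower and 1 higher, 5 contractile genes lower and 1 higher, and 3 SRF-list genes lower. Causes were otherwise not tested. Quantile normalization, no floor and a floor at the 75th percentile moved none of these values past those limits. A floor does not enter the differences of the members, so those under another floor stayed by construction. Dim probe sets such as those of CNN1 and VHL, near the floor, limit what these arrays show.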

Other observations

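The deposited table holds pairs of values that are identical on both arrays. This was so for 2127 of 54613 probe sets (3.89%), of which 1695 were below the floor and 432 above it, and the highest such value was 1531. Among the members it was so for ACTA2 probe set 215787_at alone, and among the neighbours named above for CBY2 and LOC100652768. A further 834 probe sets (1.59% of those that were not equal) differed between the arrays by a whole number to within 0.001, and no member was among them. What made these pairs was not tested.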
